A study of Mus musculus with 12 samples.

Results

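The genes described here are the secreted and membrane-bound matrix proteases of mouse muscle, their inhibitors and the lysyl oxidases that cross-link the matrix. They were taken by name from the protein-coding genes of the expression table. The name patterns cover the matrix metalloproteinases (MMP), the ADAMTS proteases and the ADAMTS-like proteins, the tissue inhibitors of metalloproteinases (TIMP) and the lysyl oxidases. No measured value entered the name patterns, though earlier results of these data were known when the members were chosen. The patterns matched 55 genes of the 54532 listed, with 22 MMP, 19 ADAMTS, 5 ADAMTS-like, 4 TIMP and 5 lysyl oxidase genes.

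RNA was sequenced from the gastrocnemius, the main calf muscle, of female ICR SCID mice, an immunodeficient strain. TL mice carried a subcutaneous tumour of HT1080 cells, a human fibrosarcoma line, and were given selpercatinib, which inhibits the kinase RET, by gavage at 30 mg/kg once a day for 19 days. TV mice carried the same tumour and were given vehicle, and NTV mice carried no tumour and were given vehicle. Each group had 4 libraries described as biological replicates, and all mice shared sex and strain. A group of selpercatinib-treated mice without tumours was not analysed here, so an effect of the drug can be read only in mice with a tumour. Between 14939830 and 23580603 reads per library fell on genes. Levels are FPKM, fragments scaled to the length of the gene and the depth of the library, given in the order of the replicate numbers, which are 1, 4, 5 and 7 in TL, 3, 4, 6 and 8 in TV, and 2, 3, 5 and 6 in NTV. Transcripts of skeletal muscle fibres made up a summed 38894 to 45175 FPKM over 8 markers in TL, 37409 to 75723 FPKM in TV and 43294 to 54736 FPKM in NTV. On the second principal component TL replicates 1 and 5 stood apart at 31.9 and 32.6, with every other library at 3.07 or lower. The brown fat gene Ucp1 reached 58.3 FPKM in TL replicate 1, 3.97 FPKM in TL replicate 5 and 53.4 FPKM in NTV replicate 5, and was at most 1.06 FPKM elsewhere, and these 3 are called the Ucp1-high libraries below. As the tissue was sequenced in bulk, fewer cells of a type and less RNA per cell cannot be told apart.

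MMPs are zinc-dependent endopeptidases that cleave collagens, gelatin and other matrix proteins. They are made as inactive precursors, and several are activated at the cell surface by membrane-type MMPs such as MMP14. TIMPs bind the active site of these enzymes and block it. ADAMTS proteases cut proteoglycans, trim procollagens or act on fibrillin microfibrils, and the ADAMTS-like proteins share their ancillary domains but lack the protease domain. Lysyl oxidases oxidise lysine residues of collagen and elastin, which starts the cross-linking that gives fibres their tensile strength. In muscle many of these proteins are made by fibroblasts and other cells between the fibres.

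Most of the family was weakly expressed in this muscle. Of the 55 genes, 23 reached a mean of at least 0.5 FPKM over the 12 libraries and were tested, 19 of them with a mean of at least 1 FPKM, and 32 lay below. The gene just inside that limit was Mmp28 at 0.591 FPKM, and the gene just outside was Mmp19 at 0.491 FPKM. All 4 TIMP genes passed, as did 4 of 5 lysyl oxidases, 3 of 5 ADAMTS-like genes, 7 of 19 ADAMTS genes and 5 of 22 MMP genes. Loxl3 reached the limit only through NTV, with a mean of 0.456 FPKM over TL and TV, and Adamtsl2 only through TV, with a mean of 0.4875 FPKM over TL and NTV, so their tests lean on the group where they are high. Summed over each family, mean levels per length were highest for the TIMPs in each group, at 32.4 ± 5.57 FPKM in TL, 38.4 ± 4.33 FPKM in TV and 39.3 ± 4.52 FPKM in NTV (SD, n = 4 each, here and below). ADAMTS-like genes came next in TL and TV, at 29.8 ± 8.08 FPKM in TL, 26.5 ± 8.14 FPKM in TV and 21.2 ± 2.44 FPKM in NTV, and exceeded the TIMPs in TL replicates 1 and 4, so the order is that of the means. ADAMTS genes gave 20.4 ± 6.69 FPKM in TL, 23.6 ± 6.37 FPKM in TV and 22.4 ± 4.41 FPKM in NTV. MMP genes together gave 14.2 ± 2.45 FPKM in TL, 14.98 ± 3.05 FPKM in TV and 26.0 ± 1.62 FPKM in NTV. Lysyl oxidase genes gave 5.13 ± 1.60 FPKM in TL, 9.22 ± 3.01 FPKM in TV and 10.7 ± 2.07 FPKM in NTV. In every TL and TV library the MMP sum was below that of every NTV library, while the TIMP sums of the 3 groups overlapped. The sum for MMPs rests mostly on Mmp2 and Mmp15, and the family sums were not tested.

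**Figure D1:**
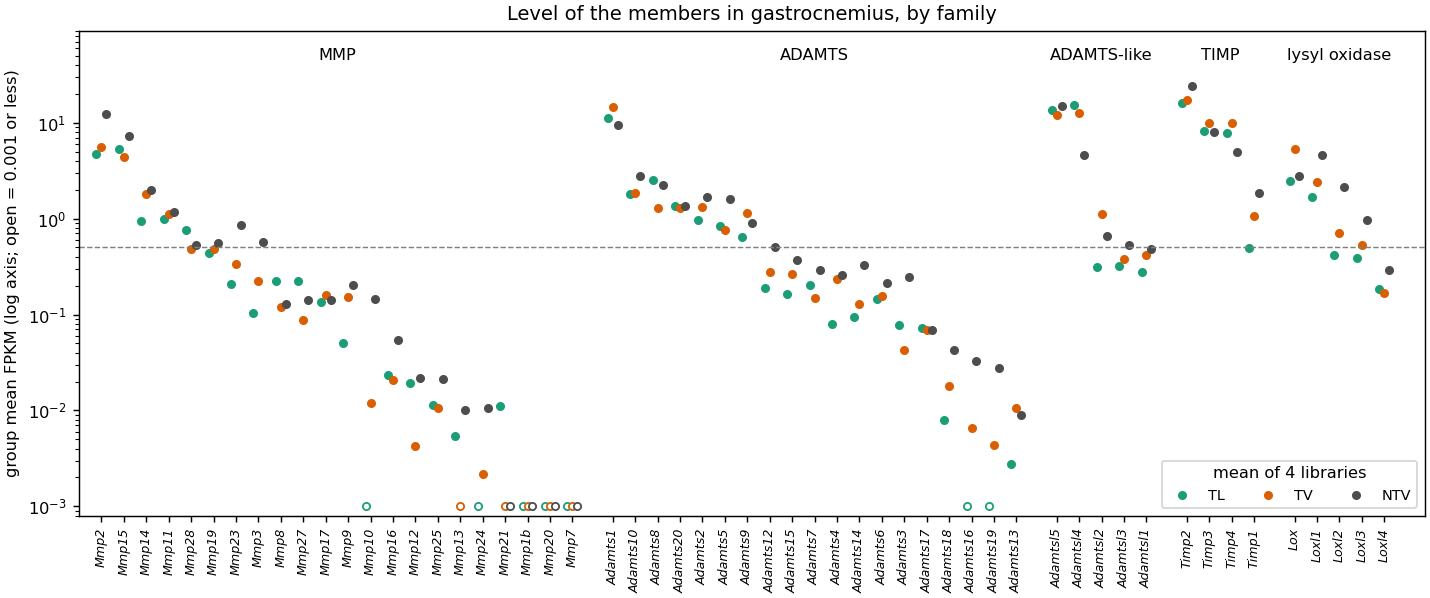
Group mean FPKM (log axis) of each of the 55 genes, by family and ordered by level within it, with points for TL, TV and NTV from left to right. Open points stand for means at or near 0, and the dashed line marks 0.5 FPKM, the limit that the mean over the 12 libraries had to reach for the test. Timp2, Timp3 and Timp4 lie well above the line in TL, TV and NTV, Timp1 lies just under it in TL, and of the MMP genes Mmp2, Mmp15, Mmp14 and Mmp11 lie above it in TL, TV and NTV.

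Promoter windows were read to see which sequence features the members with a window share. RefSeq's table (GRCm38.p6, the same assembly as mm10) gave 39 windows of 250 bases before the transcript start for 36 of the 55 genes. It held none for Mmp2, Adamts5, Adamts10, Lox, Loxl1, Loxl2 and Loxl3, all called in a comparison below, so their promoters were not searched. Each window was searched on both strands for the AP-1 motif spelled as TGANTCA, the forkhead motif spelled as TGTTTAC, the GC box spelled as GGGCGG and the TATA box spelled as TATAAA. The palindromic element of the glucocorticoid receptor was searched as well, and the GC and TATA boxes were added after the other motifs. AP-1 letters stood in 7 of the 39 windows, against 6.75% of all 32851 promoter windows. All 7 belong to MMP genes of a cluster on chromosome 9, and none of these 7 genes passed the expression limit. GC box letters stood in 21 of the 39 windows, against 32.7% of all windows, and in 14 of the 15 tested members that have a window. The TATA box was in 9 of the 39 windows, against 12.4% of all windows, and in 2 of the 15. The shares among windows of all tested genes were not counted, so the figures for the 15 have no matching background. The forkhead motif was in 2 of the 39 windows, against 3.17% of all windows, and the glucocorticoid receptor motif was in 0, against 0.00913% of all windows. Median GC content was 62.0% over the 39 windows and 52.4% over all windows. A match of letters is a description of the window and not a binding site.

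The windows below are those of the 2 membrane-type MMPs that were tested, of Adamtsl4 and Timp4, and of 2 cluster genes, which are a pair with GC boxes, a pair of genes that rose and a pair with AP-1 letters. They run 5′ to 3′ on the strand of the gene and end at the base before the RefSeq start, and capitals mark the motif letters. Mmp14 lies at chr14:54431348-54431597 (+) with 2 adjoining GC boxes 19 to 8 bases before the start. Mmp15 lies at chr8:95352046-95352295 (+) with a GC box on the opposite strand 106 to 101 bases before the start. Adamtsl4 lies at chr3:95687918-95688167 (-) with GC boxes 106 to 101 and 15 to 10 bases before the start. The window of Timp4 at chr6:115252206-115252455 (-) holds no match. Mmp3 lies at chr9:7445572-7445821 (+) with AP-1 letters 46 to 40 and a TATA box 7 to 2 bases before the start. Mmp10 lies at chr9:7502092-7502341 (+) with AP-1 letters 63 to 57 and a TATA box 29 to 24 bases before the start, and with the forkhead letters on the opposite strand at 199 to 193.
Mmp14: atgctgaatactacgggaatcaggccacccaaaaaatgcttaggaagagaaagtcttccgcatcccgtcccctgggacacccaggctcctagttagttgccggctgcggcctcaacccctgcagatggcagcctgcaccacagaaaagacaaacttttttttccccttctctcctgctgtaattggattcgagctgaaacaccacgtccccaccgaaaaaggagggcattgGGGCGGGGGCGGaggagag
Mmp15: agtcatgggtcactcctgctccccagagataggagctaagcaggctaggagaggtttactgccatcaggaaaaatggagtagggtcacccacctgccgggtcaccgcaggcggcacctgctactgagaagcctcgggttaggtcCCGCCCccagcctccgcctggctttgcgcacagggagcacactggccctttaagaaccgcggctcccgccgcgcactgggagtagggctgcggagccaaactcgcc
Adamtsl4: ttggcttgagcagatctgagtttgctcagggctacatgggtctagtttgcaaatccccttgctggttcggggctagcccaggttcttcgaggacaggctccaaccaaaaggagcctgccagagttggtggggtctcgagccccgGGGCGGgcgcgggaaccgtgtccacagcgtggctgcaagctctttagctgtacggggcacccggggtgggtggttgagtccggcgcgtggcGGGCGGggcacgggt
Timp4: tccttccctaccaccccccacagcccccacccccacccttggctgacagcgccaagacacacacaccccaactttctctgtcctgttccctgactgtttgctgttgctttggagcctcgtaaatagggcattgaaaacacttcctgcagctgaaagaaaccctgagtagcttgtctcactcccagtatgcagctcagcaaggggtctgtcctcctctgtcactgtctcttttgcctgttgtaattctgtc
Mmp3: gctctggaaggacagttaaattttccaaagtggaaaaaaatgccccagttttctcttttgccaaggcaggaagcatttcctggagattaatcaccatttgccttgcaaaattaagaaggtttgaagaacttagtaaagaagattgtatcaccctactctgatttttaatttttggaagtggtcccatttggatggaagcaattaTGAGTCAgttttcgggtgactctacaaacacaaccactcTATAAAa
Mmp10: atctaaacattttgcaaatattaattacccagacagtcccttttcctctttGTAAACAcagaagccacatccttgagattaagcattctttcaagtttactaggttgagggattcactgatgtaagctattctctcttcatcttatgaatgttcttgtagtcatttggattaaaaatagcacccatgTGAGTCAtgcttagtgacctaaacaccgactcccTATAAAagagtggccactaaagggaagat

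TV was set against NTV to ask what differed in muscle with the tumour. Mmp2, Mmp15, Adamts5, Adamts10, Loxl2 and Loxl3 fell in TV, and Adamtsl4, Timp4 and Lox rose. These were 9 of the 23 tested genes, 3 higher and 6 lower, where 25.2% of all 12754 tested genes were called (13.8% higher and 11.5% lower). Ranges of the 4 TV and 4 NTV libraries did not overlap for 2 of the 23 genes with TV higher and for 6 with TV lower, against 27.1% of all tested genes in either direction (14.4% higher and 12.7% lower). The median log2 change of the 23 was -0.27, against 0.02 over all tested genes. Each change is the difference of log2(FPKM + 0.5), fitted with limma and given ± its SE, and p-values are adjusted over all tested genes. The added 0.5 FPKM understates the change of weakly expressed genes. A gene is called at an adjusted p under 0.05. The 6 lower genes include Loxl3, which reached the expression limit only through NTV. Without TV replicate 3 the count of called members was 5 in place of 9, and that of all tested genes was 2238 in place of 3217.

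TL was set against TV to ask what differed with selpercatinib in mice that carried the tumour. By limma 0 of the 23 genes were called, where 0.517% of all tested genes were called (0.235% higher and 0.282% lower). At an unadjusted p under 0.05 there were 4 of the 23 (Mmp14, Lox, Adamts2 and Adamtsl2), beside 2057 of all 12754 tested genes. With limma-voom on the reads recovered from the FPKM 0 of the 23 were called as well. The ranges of TL and TV did not overlap for Mmp14 and Lox, both lower in TL, against 4.05% of all tested genes with TL lower, 3.36% with TL higher and 7.42% in either direction. The median log2 change was -0.22 over the 23 and -0.0031 over all tested genes. Over all tested genes 30 were higher and 36 lower in TL, against 30 higher and 10 lower with an equal FPKM total per library, and none was called without the Ucp1-high libraries.

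TL was also set against NTV, the same tumour-free mice as in the first comparison, so the results against NTV are not independent. Mmp2, Mmp14, Adamts2, Adamts5, Loxl1, Loxl2 and Loxl3 fell in TL and Adamtsl4 rose. These were 8 of the 23 genes, 1 higher and 7 lower, where 8.81% of all tested genes were called (4.19% higher and 4.62% lower). Ranges did not overlap for 1 of the 23 with TL higher and for 8 with TL lower, against 20.8% of all tested genes in either direction (10.8% higher and 10.1% lower). The median log2 change was -0.42 over the 23 and 0.02 over all tested genes. The 7 lower genes again include Loxl3. Of the 23 genes, 11 were called in none of the 3 comparisons. The count of 8 was 4 without NTV replicate 5, 5 without NTV replicate 6 and 3 without the Ucp1-high libraries, where the count over all tested genes was 537, 561 and 711 in place of 1123. Over all tested genes 534 were higher and 589 lower, against 457 higher and 269 lower with every library scaled to an equal FPKM total.

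**Figure D2:**
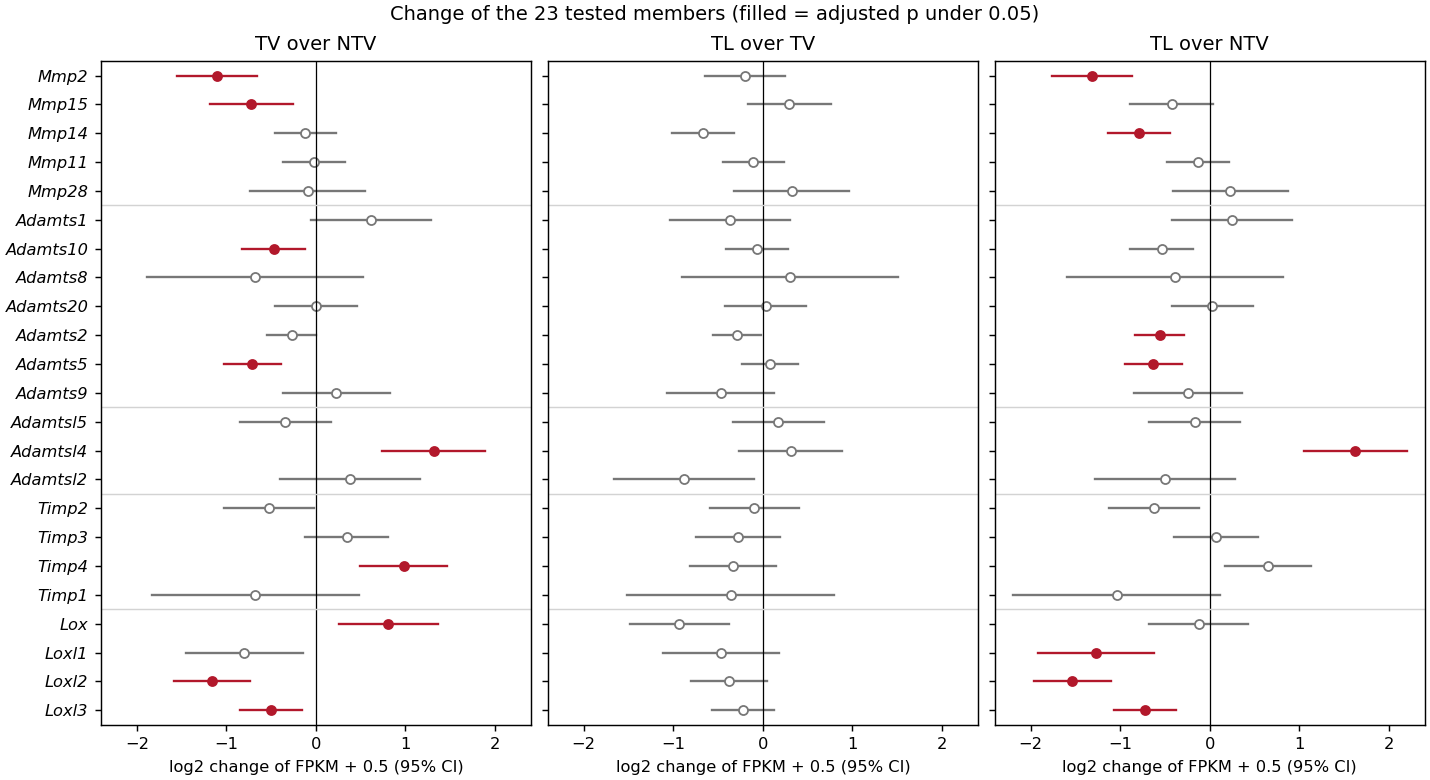
Log2 change of FPKM + 0.5 with its 95% interval for the 23 tested genes, in a left panel for TV against NTV, a middle one for TL against TV and a right one for TL against NTV, with filled points for called genes. In TV against NTV 6 filled points lie below 0 and 3 above, in TL against TV none is filled, and in TL against NTV 7 lie below 0 and 1 above.

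Gene positions below are those of the table, in mm10. The gelatinase Mmp2, which had the highest mean of the MMPs in TV and NTV and the second highest, after Mmp15, in TL, fell in tumour-bearing mice with either treatment. Mmp2 (chr8:92827291-92853420, + strand) cleaves denatured collagen and type IV collagen of basement membranes. It stood at 5.65, 3.03, 4.44 and 5.91 FPKM in TL, 6.18, 3.55, 5.55 and 6.82 FPKM in TV and 12.3, 11.2, 13.1 and 12.2 FPKM in NTV. Every TL and TV library lay below every NTV library, with TL and TV overlapping. The log2 change was -1.11 ± 0.20 (adjusted p = 0.00377) in TV against NTV and -1.31 ± 0.20 (adjusted p = 0.00523) in TL against NTV. Between TL and TV it was -0.20 ± 0.20 (adjusted p = 0.679), with a 95% interval of -0.65 to 0.25. The calls against NTV held with each of the 12 libraries left out in turn.

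Mmp14, the membrane-type enzyme that activates the MMP2 precursor together with TIMP2, fell in TL against NTV. Mmp14 (chr14:54431612-54445364, + strand) was at 0.926, 0.915, 0.737 and 1.19 FPKM in TL, 2.00, 1.42, 1.42 and 2.43 FPKM in TV and 2.34, 1.69, 1.81 and 2.11 FPKM in NTV. All 4 TL libraries were below all TV and NTV libraries, and TV and NTV overlapped. Its log2 change was -0.79 ± 0.16 (adjusted p = 0.0131) in TL against NTV. Against TV the change in TL was -0.67 ± 0.16 (adjusted p = 0.0864), which did not pass, with an unadjusted p of 0.00115 and a 95% interval of -1.01 to -0.33. In TV against NTV it was -0.12 ± 0.16 (adjusted p = 0.617). The call in TL against NTV kept an adjusted p of 0.00932 to 0.0399 with each library left out in turn, and did not pass without TL replicates 1 and 5 together (adjusted p = 0.0585) or without the Ucp1-high libraries (adjusted p = 0.0908).

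Mmp15, a second membrane-type enzyme, fell in TV. Mmp15 (chr8:95352268-95375080, + strand) had 4.89, 4.51, 5.60 and 6.26 FPKM in TL, 2.51, 3.61, 6.54 and 5.11 FPKM in TV and 7.91, 7.18, 6.75 and 7.20 FPKM in NTV. All TL and TV libraries lay below all NTV libraries, by a small margin for TV replicate 6 and TL replicate 7. The log2 change was -0.72 ± 0.21 (adjusted p = 0.0289) in TV against NTV and -0.42 ± 0.21 (adjusted p = 0.221) in TL against NTV, of which the change in TV passed. Between TL and TV the change was 0.30 ± 0.21 (adjusted p = 0.530), so a difference between the 2 groups with a tumour was not shown. The call in TV did not hold without TV replicate 3 or 4 or NTV replicate 2, 3 or 6, where the adjusted p over single omissions ran from 0.00644 to 0.0761, nor with no filter on low values, in a fit of the 2 groups alone or without the Ucp1-high libraries. In the fit of the 2 groups alone TL against NTV was called instead (adjusted p = 0.0406).

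The other tested MMPs were Mmp11, a stromelysin-type enzyme with a weak action on classical matrix substrates, and Mmp28 (epilysin). Mmp11 (chr10:75923222-75936496, - strand) was at 0.935, 0.826, 1.05 and 1.18 FPKM in TL, 1.15, 1.15, 1.12 and 1.012 FPKM in TV and 0.848, 0.880, 1.19 and 1.76 FPKM in NTV. Its 3 groups overlapped, and its log2 changes were -0.02 in TV against NTV, -0.11 in TL against TV and -0.13 in TL against NTV, with no call. Mmp28 averaged 0.764 ± 0.475 FPKM in TL, 0.477 ± 0.260 FPKM in TV and 0.532 ± 0.227 FPKM in NTV, and its groups overlapped, with log2 changes of -0.09 in TV against NTV, 0.32 in TL against TV and 0.23 in TL against NTV.

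**Figure D3:**
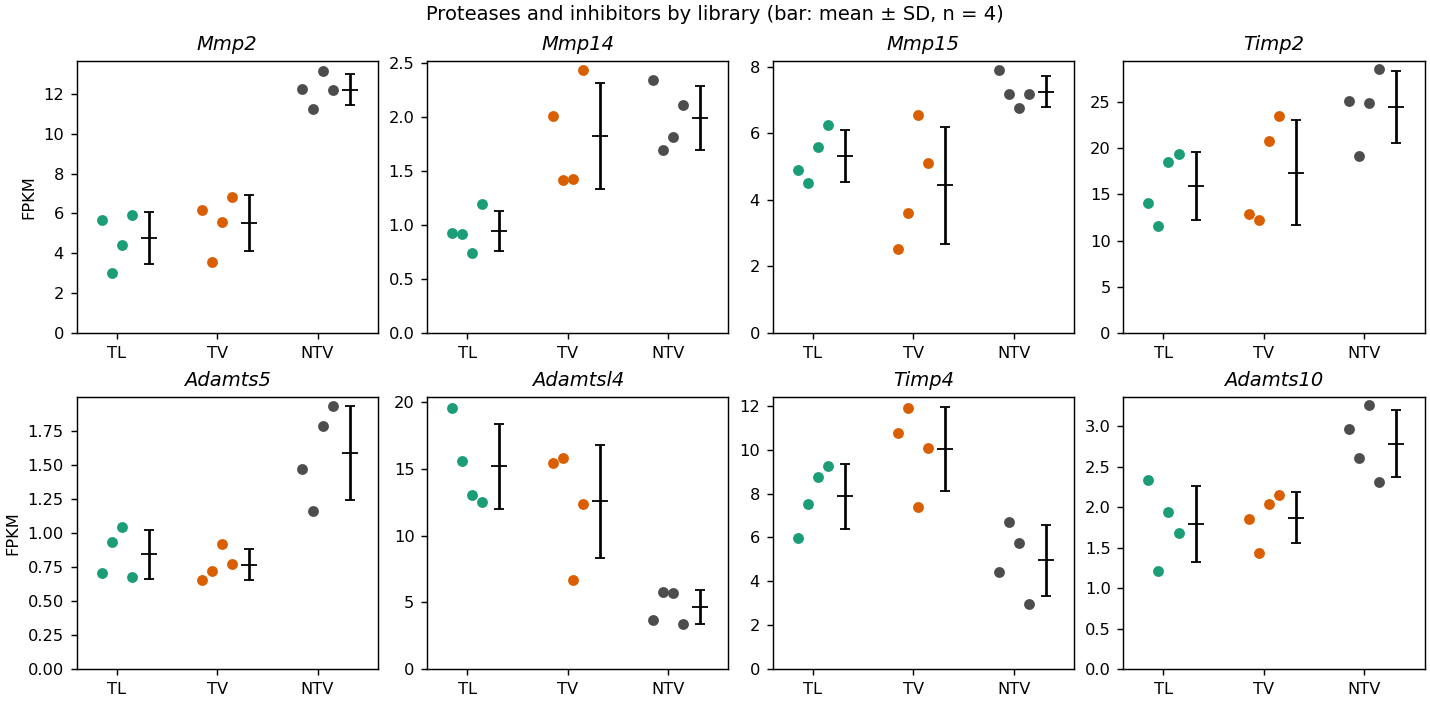
FPKM of 8 proteases, inhibitors and ADAMTS-like genes in each library (points) with the group mean and SD, in the groups TL, TV and NTV from left to right, each panel on its own linear axis from 0. The NTV points lie above all others for Mmp2, Mmp15 and Adamts5 and below all others for Adamtsl4, and the 4 TL points of Mmp14 lie at 1.19 or lower.

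Of the inhibitors, Timp4 rose in TV and no change of the other TIMPs was called over the 12 libraries. Timp4 (chr6:115241892-115252205, - strand), best known from heart tissue, was at 5.97, 7.52, 8.76 and 9.25 FPKM in TL, 10.8, 11.9, 7.40 and 10.1 FPKM in TV and 4.43, 6.70, 5.76 and 2.98 FPKM in NTV. Every TV library lay above every NTV library, and TL overlapped with both groups. The log2 change was 0.98 ± 0.22 (adjusted p = 0.00888) in TV against NTV, which held with each library left out. It was 0.65 ± 0.22 (adjusted p = 0.0851) in TL against NTV and -0.33 ± 0.22 (adjusted p = 0.5001) in TL against TV, neither of which passed.

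Timp2, the gene of the 55 with the highest mean in each group and the partner of MMP14 in MMP2 activation, did not pass over the 12 libraries. Timp2 (chr11:118301069-118355740, - strand) was at 14.1, 11.6, 18.5 and 19.4 FPKM in TL, 12.8, 12.2, 20.7 and 23.5 FPKM in TV and 25.1, 19.1, 24.9 and 28.6 FPKM in NTV. TV overlapped NTV through replicates 6 and 8, and TL overlapped NTV narrowly through replicate 7. Its log2 change was -0.53 ± 0.23 (adjusted p = 0.110) in TV against NTV and -0.62 ± 0.23 (adjusted p = 0.105) in TL against NTV. Without TV replicate 8 the fall in TV was called, at -0.69 (adjusted p = 0.0436). Timp3, which stays bound to the matrix, was at 8.61, 6.76, 7.995 and 9.18 FPKM in TL, 12.3, 9.54, 8.42 and 9.72 FPKM in TV and 5.69, 9.39, 11.7 and 5.51 FPKM in NTV. Its groups overlapped, with log2 changes of 0.34 in TV against NTV, -0.28 in TL against TV and 0.07 in TL against NTV. Of the exonic bases of Timp3, 21.3% are shared with Syn3 on the opposite strand in the GENCODE annotation, and with no strand stated for the counting the reads of such pairs cannot be told apart. Timp1, an inducible inhibitor, spread widely within groups at 0.731, 0.388, 0.287 and 0.582 FPKM in TL, 2.91, 0.126, 0.404 and 0.812 FPKM in TV and 0.308, 1.28, 3.18 and 2.65 FPKM in NTV. TV replicate 3 and NTV replicates 5 and 6 were its highest libraries, the groups overlapped, and no change passed.

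The ADAMTS proteases split between falls and no call. Adamts5, an aggrecanase that also cuts versican, was lower in both groups with a tumour. Adamts5 (chr16:85856173-85901828, - strand) had 0.707, 0.936, 1.04 and 0.679 FPKM in TL, 0.650, 0.721, 0.919 and 0.768 FPKM in TV and 1.47, 1.16, 1.78 and 1.93 FPKM in NTV. Each NTV library lay above each TL and TV library. On the log2 scale Adamts5 changed by -0.71 ± 0.15 (adjusted p = 0.00581) in TV against NTV, which held with each library left out, and -0.63 ± 0.15 (adjusted p = 0.0225) in TL against NTV. For TL the call did not hold without TL replicate 1 or 7 or NTV replicate 5 or 6 (adjusted p from 0.0186 to 0.0688 over single omissions), nor with no filter on low values, with an equal FPKM total per library or without the Ucp1-high libraries.

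Adamts2, which removes the amino-terminal propeptide of fibrillar procollagens, fell in TL. Adamts2 (chr11:50602084-50807573, + strand) was at 0.968, 1.002, 0.927 and 0.974 FPKM in TL, 1.53, 0.935, 1.38 and 1.40 FPKM in TV and 1.51, 1.42, 1.91 and 1.84 FPKM in NTV. The TL values lay within a narrow range below every NTV library, and TV replicate 4 was as low as TL. For Adamts2 the log2 change was -0.56 ± 0.12 (adjusted p = 0.0200) in TL against NTV, -0.29 ± 0.12 (adjusted p = 0.286) in TL against TV and -0.27 ± 0.12 (adjusted p = 0.129) in TV against NTV. Its call did not hold without TL replicate 7 or NTV replicate 5 or 6 (adjusted p from 0.0127 to 0.0606), nor with an equal FPKM total per library, without the Ucp1-high libraries or without TL replicates 1 and 5.

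Adamts10, which associates with fibrillin microfibrils, fell in TV close to the limit of the test. Adamts10 (chr17:33524204-33553782, + strand) was at 2.33, 1.21, 1.94 and 1.68 FPKM in TL, 1.86, 1.44, 2.04 and 2.15 FPKM in TV and 2.96, 2.61, 3.26 and 2.32 FPKM in NTV. TV lay below NTV in every library, and TL replicate 1 just reached the lowest NTV library. On the log2 scale Adamts10 changed by -0.47 ± 0.16 (adjusted p = 0.0487) in TV against NTV and -0.54 ± 0.16 (adjusted p = 0.0577) in TL against NTV. In TV the call was lost with any 1 of 9 libraries left out, namely TL replicate 5 or 7, TV replicate 3, 4 or 6 or NTV replicate 2, 3, 5 or 6 (adjusted p from 0.0260 to 0.131), and with 0.1 FPKM added in place of 0.5, with no filter on low values, with an equal FPKM total per library, without the mean-variance trend or without the Ucp1-high libraries. TL against NTV was in turn called without TL replicate 1 (adjusted p = 0.0364), without TL replicates 1 and 5 (adjusted p = 0.0257) and in voom on recovered reads (adjusted p = 0.0419, or 0.0426 with the lower limit on reads).

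Adamts1, the ADAMTS gene with the highest mean in each group and a protease of versican and aggrecan, was not called over the 12 libraries. Adamts1 (chr16:85793827-85803113, - strand) was at 14.7, 13.1, 6.57 and 10.4 FPKM in TL, 22.4, 11.4, 13.3 and 11.2 FPKM in TV and 8.01, 8.86, 14.97 and 5.95 FPKM in NTV. TV replicate 3 was the highest library and the groups overlapped, with log2 changes of 0.62 in TV against NTV, -0.36 in TL against TV and 0.25 in TL against NTV. Without the Ucp1-high libraries, among them NTV replicate 5, its highest in NTV, the rise in TV was called, at 0.85 (adjusted p = 0.0420). Adamts8 was at 7.38, 0.746, 0.386 and 1.57 FPKM in TL, 2.20, 1.60, 0.764 and 0.594 FPKM in TV and 1.82, 2.58, 1.66 and 2.89 FPKM in NTV, with TL replicate 1 far above the rest and no call. Adamts20, known in mice for the belted coat pattern of its mutants, was at 1.299, 1.58, 0.863 and 1.63 FPKM in TL, 1.25, 1.18, 1.45 and 1.23 FPKM in TV and 0.925, 1.75, 0.798 and 1.90 FPKM in NTV, with overlapping groups and no call. Adamts9, another protease of versican, averaged 0.647 ± 0.173 FPKM in TL, 1.14 ± 0.488 FPKM in TV and 0.905 ± 0.508 FPKM in NTV. Its log2 changes were 0.23 in TV against NTV, -0.47 in TL against TV and -0.24 in TL against NTV, with no call.

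Adamtsl4 had the largest rise of the 23 genes in either comparison with NTV. Adamtsl4 (chr3:95676201-95687917, - strand) encodes a protein that binds fibrillin microfibrils and is mutated in human dislocation of the lens. It stood at 19.6, 15.6, 13.1 and 12.5 FPKM in TL, 15.4, 15.8, 6.65 and 12.4 FPKM in TV and 3.65, 5.74, 5.71 and 3.40 FPKM in NTV. All 8 libraries of mice with a tumour lay above all NTV libraries, with TV replicate 6 the nearest to them. For Adamtsl4 the log2 change was 1.31 ± 0.26 (adjusted p = 0.00528) in TV against NTV, 1.63 ± 0.26 (adjusted p = 0.00600) in TL against NTV and 0.31 ± 0.26 (adjusted p = 0.607) in TL against TV. Both calls held with each library left out.

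Of the 2 other ADAMTS-like genes tested, neither was called. Adamtsl5, the more abundant, was at 20.04, 14.0, 11.2 and 9.48 FPKM in TL, 14.8, 14.4, 7.57 and 11.2 FPKM in TV and 16.0, 14.5, 15.6 and 13.3 FPKM in NTV. The groups overlapped, with log2 changes of -0.34 in TV against NTV, 0.17 in TL against TV and -0.17 in TL against NTV. Adamtsl2, linked in humans to geleophysic dysplasia, averaged 0.313 ± 0.201 FPKM in TL, 1.12 ± 0.802 FPKM in TV and 0.662 ± 0.330 FPKM in NTV, with log2 changes of 0.38 in TV against NTV, -0.88 in TL against TV and -0.50 in TL against NTV. Its TV values were spread from 0.321 to 1.91 FPKM.

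The lysyl oxidases moved in opposite directions in TV, where Lox rose and Loxl2 fell. Loxl2 (chr14:69609068-69695834, + strand), which acts on basement membrane collagen IV among other substrates, had the largest fall of the 23 genes. It was at 0.541, 0.276, 0.436 and 0.399 FPKM in TL, 0.911, 0.321, 0.630 and 0.973 FPKM in TV and 1.64, 2.00, 2.75 and 2.25 FPKM in NTV. Each NTV library was above each TL and TV library, and TL and TV overlapped. On the log2 scale Loxl2 changed by -1.16 ± 0.20 (adjusted p = 0.00251) in TV against NTV, -1.53 ± 0.20 (adjusted p = 0.00235) in TL against NTV and -0.38 ± 0.20 (adjusted p = 0.371) in TL against TV. Both calls held with each library left out. An antisense gene, Gm27177, shares 5.57% of its exonic bases.

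Loxl3 (chr6:83034173-83052562, + strand) was weaker, at 0.365, 0.262, 0.318 and 0.599 FPKM in TL, 0.579, 0.474, 0.441 and 0.611 FPKM in TV and 0.785, 1.09, 1.23 and 0.741 FPKM in NTV. Its TL and TV libraries were all below NTV. Since NTV alone carried Loxl3 over the expression limit, the fit with no filter on low values is given beside the other. For Loxl3 the log2 change was -0.50 ± 0.16 (adjusted p = 0.0386) in TV against NTV and -0.72 ± 0.16 (adjusted p = 0.0193) in TL against NTV. With no filter the adjusted p was 0.0705 in TV, which did not pass, and 0.0369 in TL, which did. The call in TV did not hold without TL replicate 1, TV replicate 3, 4 or 6 or NTV replicate 3 or 5 (adjusted p from 0.0318 to 0.104), nor with 0.1 FPKM added in place of 0.5, with no filter on low values, with an equal FPKM total per library, without the Ucp1-high libraries or without TL replicates 1 and 5. That in TL did not hold without TL replicate 4 or NTV replicate 3 or 5 (adjusted p from 0.0208 to 0.0580), nor with an equal FPKM total per library, without the Ucp1-high libraries or without TL replicates 1 and 5. Htra2, on the opposite strand, shares 11.6% of the exonic bases of Loxl3.

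Loxl1, which is needed for the renewal of elastic fibres in mice, fell in TL. Loxl1 (chr9:58287738-58313186, - strand) was at 2.63, 0.714, 1.33 and 2.08 FPKM in TL, 3.05, 1.65, 1.83 and 3.19 FPKM in TV and 5.67, 2.84, 5.001 and 4.83 FPKM in NTV. TL lay below NTV in every library, while TV replicates 3 and 8 reached above the lowest NTV library. On the log2 scale Loxl1 changed by -1.27 ± 0.30 (adjusted p = 0.0245) in TL against NTV, -0.80 ± 0.30 (adjusted p = 0.0678) in TV against NTV and -0.47 ± 0.30 (adjusted p = 0.474) in TL against TV. Its call did not hold without TL replicate 4 or NTV replicate 2, 5 or 6 (adjusted p from 0.0193 to 0.0671), nor with no filter on low values, with an equal FPKM total per library or without the Ucp1-high libraries. The fall in TV against NTV was called without TL replicate 4 (adjusted p = 0.0367), without NTV replicate 3 (adjusted p = 0.0409) and in a fit of the 2 groups alone (adjusted p = 0.0440).

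Lox itself, the principal cross-linking enzyme of fibrillar collagen and elastin, rose in TV. Lox (chr18:52516069-52529867, - strand) was at 2.95, 1.77, 2.69 and 2.44 FPKM in TL, 8.80, 4.04, 5.19 and 3.52 FPKM in TV and 2.85, 1.82, 3.70 and 2.64 FPKM in NTV. All 4 TL libraries lay below all 4 TV libraries and within or near the NTV range, and TV replicate 8 overlapped with NTV. For Lox the log2 change was 0.81 ± 0.25 (adjusted p = 0.0364) in TV against NTV. In TL against TV it was -0.93 ± 0.25 (adjusted p = 0.125), with an unadjusted p of 0.00321 and a 95% interval of -1.48 to -0.38, which did not pass over all genes. In TL against NTV it was -0.12 ± 0.25 (adjusted p = 0.796). The rise in TV did not hold without TV replicate 3 or 6 or NTV replicate 2, 3 or 6 (adjusted p from 0.0202 to 0.0938), nor with no filter on low values, with an equal FPKM total per library or in a fit of the 2 groups alone. Without TV replicate 3, the highest library, the log2 change was 0.56 (adjusted p = 0.0819).

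**Figure D4:**
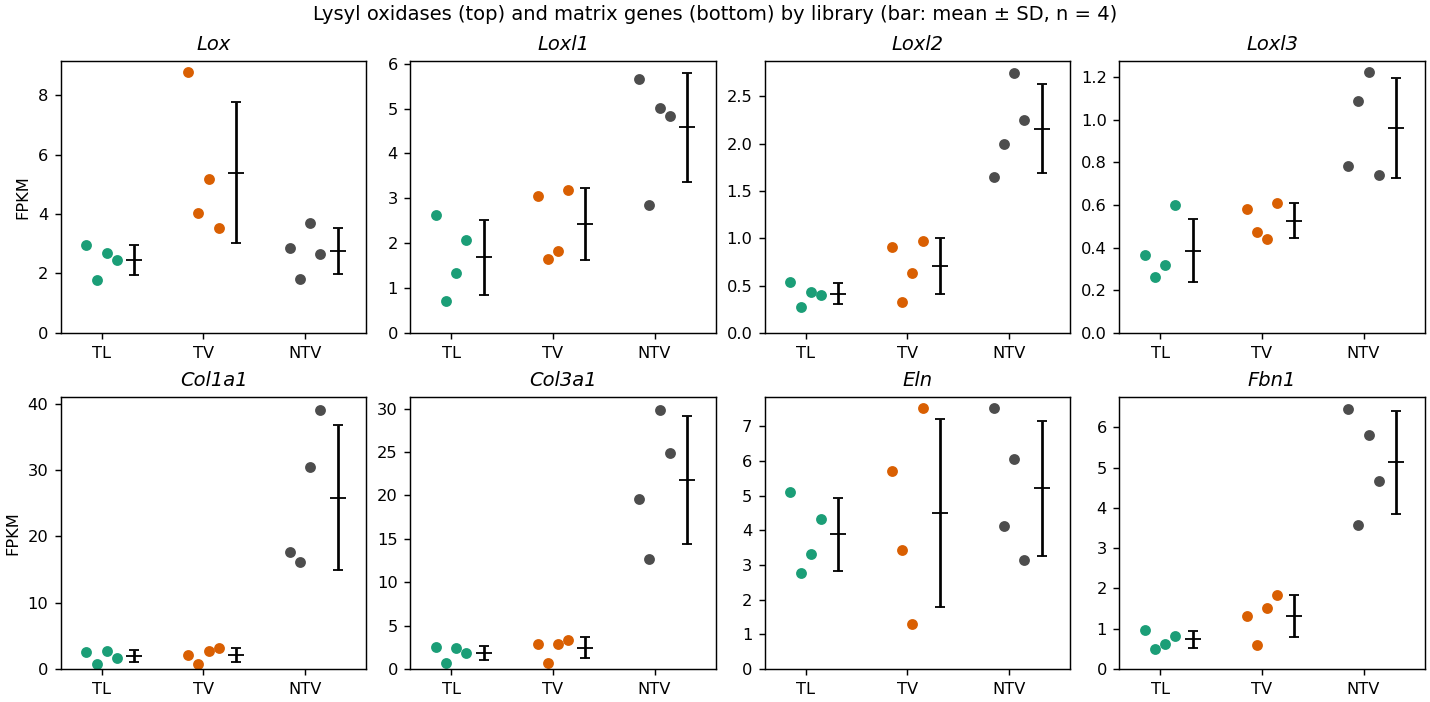
FPKM of 4 lysyl oxidases and of Col1a1, Col3a1, Eln and Fbn1 in each library (points) with the group mean and SD, in the groups TL, TV and NTV from left to right, each panel on its own linear axis from 0. Lox has its highest mean in TV, where its points overlap those of NTV, while Loxl2, Loxl3, Col1a1, Col3a1 and Fbn1 are highest in all 4 NTV libraries.

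The substrates of these enzymes were measured from lists that were not picked for how their genes moved in this table, though earlier results of these data were known. As background for each list, 13.8% of all tested genes were called higher and 11.5% lower in TV against NTV. In TL against NTV these shares were 4.19% and 4.62%. The median log2 change over all tested genes was 0.02 in TV and 0.02 in TL, each against NTV. Fibrillar collagens and elastin, on which lysyl oxidases act, had 9 tested genes of 12. Of these, 6 fell and 0 rose in TV against NTV, with a median log2 change of -1.20, counting Col24a1, which reached the expression limit only through NTV, and 6 fell and 0 rose in TL against NTV, with a median of -1.38. In TL against TV 0 of 9 were called, with a median of -0.12. Col1a1, the alpha-1 chain of type I collagen, averaged 1.90 ± 0.882 FPKM in TL, 2.16 ± 1.07 FPKM in TV and 25.8 ± 10.9 FPKM in NTV. Its log2 change was -3.33 ± 0.40 (adjusted p = 0.000898) in TV against NTV and -3.45 ± 0.40 (adjusted p = 0.00191) in TL against NTV. Col3a1 and Col1a2 fell by 2.97 and 2.91 on the log2 scale in TV against NTV, and by 3.26 and 2.86 in TL against NTV.

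Enzymes and chaperones of collagen processing had 19 tested genes of 22, of which 1 rose and 10 fell in TV against NTV (median log2 change -0.51), the rise being that of P4hb, a prolyl hydroxylase subunit and disulphide isomerase, at 0.75 (named after its value was seen), and 0 rose and 7 fell in TL against NTV (median -0.40). Serpinh1, the collagen chaperone HSP47, fell by 1.33 on the log2 scale in TV against NTV. Pcolce, an enhancer of procollagen C-proteinase, fell by 1.13 in TV and by 1.31 in TL against NTV. P4ha1, the catalytic prolyl hydroxylase subunit, fell by 1.02 in TV and by 0.84 in TL against NTV. Fkbp10 and Colgalt2 fell by 0.86 and 0.85 in TL against NTV, and by 0.71 and 0.95 in TV against NTV. In TL against TV 0 of the 19 were called, with a median of 0.07.

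Substrates of ADAMTS proteases had 6 tested genes of 11, with 3 falls and no rise in each comparison with NTV, at medians of -0.68 in TV and -1.20 in TL. Fbn1, which encodes the microfibril protein fibrillin-1, averaged 0.731 ± 0.209 FPKM in TL, 1.32 ± 0.527 FPKM in TV and 5.13 ± 1.27 FPKM in NTV. It had a log2 change of -1.66 ± 0.24 (adjusted p = 0.00136) in TV against NTV and -2.18 ± 0.24 (adjusted p = 0.00191) in TL against NTV. Comp, a cartilage and tendon protein, fell by 1.80 in TV and by 1.61 in TL, and the proteoglycan gene Bgn fell by 1.14 in TV and by 1.39 in TL, each against NTV. In TL against TV 0 of the 6 were called, with a median of -0.24.

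Regulators of protease activity were counted in the same way. Over all tested genes 25.2% were called in either direction in TV against NTV and 8.81% in TL against NTV. Of 7 tested proprotein convertases and other MMP regulators, out of 12 listed, 2 rose and 0 fell in TV against NTV, with a median of 0.24. These were Furin, which cleaves the precursors of membrane-type MMPs, at 0.60 ± 0.11 (adjusted p = 0.00417), and Pcsk7 at 0.30 ± 0.07 (adjusted p = 0.0139). None of the 7 was called in TL against NTV (median -0.07) or in TL against TV (median -0.12). Of 6 tested genes of the plasminogen system, out of 9, Plgrkt, a plasminogen receptor, fell in TV against NTV (-0.40 ± 0.11, adjusted p = 0.0208), and none was called in the other comparisons. The medians were -0.09 in TV against NTV, -0.15 in TL against TV and -0.31 in TL against NTV. They count Plat, which reached the expression limit only through NTV, with a mean of 0.434 FPKM over TL and TV. Of 5 tested membrane ADAM proteases, out of 10, Adam17, the sheddase of TNF, fell in TV (-0.77 ± 0.11, adjusted p = 0.00135) and in TL (-0.71 ± 0.11, adjusted p = 0.00481) against NTV, with medians of -0.20 in TV and -0.29 in TL. Of 9 tested TGF-beta genes, out of 11 listed, Tgfbr1, a type I receptor, rose by 0.80 on the log2 scale and Postn and Ltbp4 fell by 1.42 and 1.04 in TV against NTV, with a median of -0.32. In TL against NTV Tgfbr1 was the 1 gene called (0.73 ± 0.20, adjusted p = 0.0440), with a median of -0.24 over the 9.

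Some markers of cells that make matrix were lower in the same comparisons. Summed over 8 tenocyte markers, levels were 18.7 to 46.3 FPKM in TL, 17.3 to 41.7 FPKM in TV and 64.7 to 126 FPKM in NTV, and of the 7 markers tested 6 fell in TV and 5 in TL against NTV, counting in each Cilp2, which reached the expression limit only through NTV. Kera and Tnmd, a tendon proteoglycan and a tendon membrane protein, averaged 0.940 ± 0.953 FPKM in TL, 0.240 ± 0.197 FPKM in TV and 11.5 ± 6.16 FPKM in NTV for Kera and 1.24 ± 1.10 FPKM in TL, 0.711 ± 0.515 FPKM in TV and 9.74 ± 4.34 FPKM in NTV for Tnmd. Scx, the transcription factor of tendon cells, was not among those that fell, at 9.86 ± 5.08 FPKM in TL, 11.2 ± 3.67 FPKM in TV and 4.89 ± 1.78 FPKM in NTV. Fibro-adipogenic progenitor markers summed to 43.8 to 83.9 FPKM in TL, 63.4 to 93.3 FPKM in TV and 99.6 to 147 FPKM in NTV, with 4 of 7 lower in TV and 2 of 7 lower in TL against NTV. Pdgfra and Ly6a were called in neither, with log2 changes of -0.16 and -0.06 in TV and -0.39 and -0.38 in TL. Endothelial markers summed to 41.0 to 54.9 FPKM in TL, 50.8 to 61.5 FPKM in TV and 69.6 to 89.6 FPKM in NTV, with 2 of 6 lower in TV and 3 of 6 lower in TL. Pecam1 was called in neither, at -0.04 in TV and -0.27 in TL. Over all tested genes 11.5% were called lower in TV and 4.62% in TL, each against NTV. The part of these cells in the falls of Mmp2, Adamts5, Loxl2 and the other genes was not tested.

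For the other cell types the marker sums were as follows. Smooth muscle and pericyte markers summed to 79.0 to 116 FPKM in TL, 82.6 to 171 FPKM in TV and 104 to 199 FPKM in NTV, with 0 of 6 called in TV and 2 of 6 lower in TL. Macrophage markers summed to 10.4 to 18.1 FPKM in TL, 11.3 to 23.5 FPKM in TV and 9.34 to 25.7 FPKM in NTV, with 0 of 7 called. Neutrophil markers summed to 0.355 to 5.18 FPKM in TL, 1.83 to 8.28 FPKM in TV and 0.433 to 4.63 FPKM in NTV. The 2 tested, S100a8 and S100a9, were called in no comparison. Their log2 changes were 1.296 and 0.927 in TV against NTV (adjusted p = 0.128 and 0.206). In TL against TV they were -0.811 and -0.910, and in TL against NTV 0.486 and 0.0173. Ly6g and Mpo, also on the list, were at 0 in 11 of 12 libraries each. Adipocyte markers ranged from 56.4 to 731 FPKM in TL, 111 to 592 FPKM in TV and 43.8 to 226 FPKM in NTV, with 0 of 6 called. Schwann cell markers summed to 10.7 to 29.0 FPKM in TL, 12.9 to 31.1 FPKM in TV and 10.4 to 45.4 FPKM in NTV, with 1 of 4, S100b (named after its value was seen), lower in TV. Muscle fibre markers had 0 of 8 called in any comparison. Mitochondrial reads made up 6.04 to 13.9% of the reads in TL, 5.08 to 7.70% in TV and 11.6 to 13.5% in NTV.

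The 32 members below 0.5 FPKM had no test in the fit above. Their highest value in any library was 1.11 FPKM, and 3 of them, Mmp1b, Mmp7 and Mmp20, had no read in any library. At 3 reads these 3 would have stood at 0.0850 to 0.149, 0.115 to 0.202 and 0.0375 to 0.0658 FPKM over the 12 libraries, so lower levels were not detectable at this depth. The 6 highest of the 32 were Mmp19, Mmp23, Adamtsl3, Adamtsl1, Adamts12 and Mmp3. Mmp23 had 9, 8, 10 and 9 reads in TL, 15, 6, 10 and 22 reads in TV and 34, 19, 50 and 44 reads in NTV. Every TL library had fewer reads than every NTV library, and TV replicate 8 had more than NTV replicate 3. Mmp3, the stromelysin that can activate other MMPs, had 8, 2, 1 and 3 reads in TL, 7, 0, 3 and 16 reads in TV and 15, 24, 25 and 11 reads in NTV, with TV replicate 8 among the NTV libraries. Adamts12 summed to 151 reads in TL, 230 in TV and 404 in NTV. Adamtsl1 summed to 263 reads in TL, 410 in TV and 460 in NTV, Adamtsl3 to 189 reads in TL, 224 in TV and 299 in NTV and Mmp19 to 109 reads in TL, 134 in TV and 145 in NTV. These are reads as counted, not scaled for the depth of each library.

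An alternative chosen after seeing the data, limma-voom on recovered reads with at least 10 reads in at least 4 libraries, tested 17 of the 32, and its changes are log2 differences of reads scaled for depth. The other 15 had fewer reads than that. Of the 17, Adamts3, Adamts14, Mmp3, Mmp8 and Mmp9 reached 10 reads in fewer than 4 TL and TV libraries and so passed with the help of NTV. No test against NTV is given for these 5, since passing through the group where a gene is high favours a difference from it. That reason does not hold for Mmp8, which was left out by the same rule. Mmp8 was not highest in NTV, with 40 reads in TL, 23 in TV and 21 in NTV. Of the other 12, 3 fell and 0 rose in TV against NTV, where 24.2% of the 14831 genes in that fit were called (12.2% higher and 12.1% lower). These were Mmp23 (-1.55 ± 0.41, adjusted p = 0.0165), Adamts12 (-0.81 ± 0.26, adjusted p = 0.0406) and Adamts7 (-0.95 ± 0.33, adjusted p = 0.0498). In TL against NTV 3 of the 12 fell and 0 rose, where 9.32% were called (4.01% higher and 5.31% lower), namely Mmp23 (-1.96 ± 0.44, adjusted p = 0.0172), Adamts12 (-1.42 ± 0.29, adjusted p = 0.0115) and Adamts4 (-1.71 ± 0.39, adjusted p = 0.0189). Mmp23 had at least 10 reads in just 4 TL and TV libraries, the fewest that the limit allows. In TL against TV 0 of the 17 were called, where 0.479% of the 14831 genes were called. At an unadjusted p under 0.05 there were 2 of the 17, beside 2278 of the 14831 genes. Adamts3, Adamts4, Adamts7, Adamts14, Mmp8 and Mmp9 fall outside the naming rule, and the split of the 17 and these names were chosen after their values were seen. Adamts3, like Adamts2 a procollagen N-proteinase, had 2, 3, 9 and 19 reads in TL, 1, 0, 10 and 4 reads in TV and 21, 22, 25 and 29 reads in NTV. As Adamts3 passed the limit with the help of NTV, its difference from NTV is not read as a result. Adamts4, an aggrecanase, had 6, 12, 3 and 8 reads in TL, 33, 24, 13 and 15 reads in TV and 30, 17, 25 and 18 reads in NTV, with every TL library below every TV and NTV library. Mmp9, the gelatinase of neutrophils and macrophages, summed to 13 reads in TL, 37 in TV and 52 in NTV.

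The MMP cluster on chromosome 9, whose windows held the AP-1 letters, was close to silent. Its 9 genes in this table, Mmp13, Mmp12, Mmp1b, Mmp3, Mmp10, Mmp8, Mmp27, Mmp20 and Mmp7, lie at chr9:7272514-7699585 (mm10). Together they had 100 reads over the 4 TL libraries, 68 in TV and 148 in NTV. Mmp3 gave 14 reads in TL, 26 in TV and 75 in NTV. Mmp10 had 0 reads in TL, 2 in TV and 17 in NTV, all of the NTV reads in replicate 6. Mmp8, the neutrophil collagenase, and Mmp27 had no AP-1 letters in their windows and gave 40 and 35 reads in TL, 23 and 14 in TV, and 21 and 22 in NTV.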

How the data were processed

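Poly(A) RNA of 12 gastrocnemius muscles was analysed, 4 libraries each of TL, TV and NTV. The values are FPKM in 1 table of 54532 genes that the authors deposited, with gene positions and lengths. Among tools, HISAT2 2.05, DESeq2 and featureCounts 1.5.0-p3 are named in the submitters' processing notes, with mm10 as the build and no roles given. Strand of counting is not given in the sources used here. FPKM times length gave whole reads, within 0.1 read, for 100% of genes, and the scale between libraries equalled median-of-ratios factors (relative difference 7.61e-12 or less), which assumes that most genes do not differ. Over 18 pairs of libraries within groups, chi-square divided by its degrees of freedom was 16.4 or more, so none was counted as a copy.

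The members were found by name and biotype; all 55 were in the GENCODE reference annotation, 53 with the same coordinates. The test was limma (version 3.58.1, R 4.3.3) with group means and a mean-variance trend, applied to log2(FPKM + 0.5) of all 12 libraries. Genes averaging at least 0.5 FPKM were tested, 12754 in all, and p-values were adjusted over them by Benjamini-Hochberg. Data were simulated for TV against NTV over these 12754 genes, with changes made to FPKM + 0.5. The fit found 80 of 100 genes changed 2-fold and 93 of 100 changed 4-fold, and made 8 false calls. Simulated noise was independent between genes and a small part of the genes was changed, so these rates need not hold for the measured data. For genes with no read, the limit is the level of 3 reads, which covers counting error alone. Members and gene lists were chosen with earlier results of these data known. Members that were called, or had a mean of at least 1 FPKM, are given per library; other tested members by means; below 0.5 FPKM the 6 highest are named, and from each list the 3 called genes with the largest change. GC and TATA boxes, and the genes outside this rule, were chosen later. Protein sequences were not used here. Alternatives were other pseudocounts and filters, an equal FPKM total per library, 2 groups only, no trend, a replicate block, voom and each library left out. Figures were drawn with Python 3.11.15 and matplotlib 3.10.9.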

Additional observations from a re-analysis of the deposited data

Results flagged for a closer look

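The level of Adamts8, a secreted ADAMTS protease, was 7.38 FPKM in TL replicate 1, far from the other 3 TL libraries, of which the nearest was at 1.57 FPKM and the lowest at 0.386 FPKM. The gap to the nearest library was 0.831 of the range of the group, just over the 95% limit of Dixon's test for 4 samples. This was the 1 case among 69 groups checked over 23 genes, and chance alone gives about 1 in 20. The same library had 58.3 FPKM of Ucp1, and its part in the level of Adamts8 was not tested. Without that library the log2 change of Adamts8 was -0.34 (adjusted p = 0.739) in TL against TV, compared with 0.30 with it, and neither value passed.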

How the results depend on the processing

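The number of called members was within 1.5 times the reported one in most settings. For TV against NTV it was 9 and ran from 5 to 10 with 1 library left out, with 5 without TV replicate 3, and was 14 of 40 in voom with the lower limit on reads. For TL against NTV it was 8 and ran from 4 to 8 with 1 library left out (4 without NTV replicate 5), and was 4 with an equal FPKM total per library, 3 without the Ucp1-high libraries and 13 in voom with the lower limit, where the counts include low members that passed with the help of NTV. For TL against TV it was 0 throughout. Over all genes, TL against TV moved from 66 calls to 19 with no filter, 40 with an equal total, 8 in a fit of 2 groups, 4 without TL replicates 1 and 5, 0 without the Ucp1-high libraries, and 7 to 280 with 1 library left out (7 without TL replicate 5, 280 without TL replicate 4). TL against NTV moved from 1123 calls to 742 with no filter, 726 with an equal total, 711 without the Ucp1-high libraries, and 514 to 1287 with 1 library left out. TV against NTV moved from 3217 calls to 2547 with no filter, 2210 with an equal total and likewise 2210 without the Ucp1-high libraries, 2812 in a fit of 2 groups, 3595 in voom with the lower limit, and 2233 to 3437 with 1 library left out. The equal total moved the median log2 change of all genes in TL against NTV to 0.14, in place of 0.02. The cause of these moves was not tested.

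With the replicate number as a block, 0 genes and 0 members were called in each of the 3 comparisons, while 2711 genes in TV against NTV, 777 in TL against TV and 1422 in TL against NTV had an unadjusted p under 0.05. The groups share few numbers, and libraries with the same number correlated in their deviations at 0.0142 to 0.133 over 4 pairs, so the numbers were not taken as pairing.

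Each tested member was counted again in each setting, so the call of 1 member can be lost several times. With 1 library left out, a call was lost 25 times and gained 3 times in TV against NTV. In TL against NTV it was lost 14 times and gained 1 time. Over the other settings, a call was lost 25 times and gained 2 times in TV against NTV. In TL against NTV it was lost 22 times and gained 4 times. Some changes that were not called changed sign. In TV against NTV, Adamts20 was 0.018 with a pseudocount of 0.1, 0.047 with an equal total, 0.051 in both forms of voom, and -0.15 to 0.14 with 1 library left out. Mmp11 was 0.019 with an equal total and -0.12 to 0.13 with 1 left out, and Mmp28 was 0.067 with the block and -0.25 to 0.065. In TL against TV with the block, Adamtsl5 was -0.058, Adamtsl4 -0.00793, Adamts8 -0.64 and Mmp28 -0.15. Without the Ucp1-high libraries, and likewise without TL replicates 1 and 5, Adamtsl5 was -0.00806 and Adamts8 -0.059. With 1 library left out, Timp2 ran from -0.24 to 0.068, Adamtsl5 from -0.023 to 0.32, Adamts10 from -0.17 to 0.069, Adamts8 from -0.34 to 0.71, Adamts20 from -0.047 to 0.17 and Timp1 from -0.70 to 0.12. In TL against NTV with the block, Adamts1 was -0.12, Timp3 -0.31 and Mmp28 -0.082, and Adamts9 was 0.037 without the Ucp1-high libraries. With 1 left out, Timp3 ran from -0.080 to 0.26, Lox from -0.27 to 0.012, Adamts8 from -1.03 to 0.020, Adamts20 from -0.12 to 0.17 and Mmp11 from -0.22 to 0.026. None of these changes was called in the comparison named.

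Depth limits the 32 members below 0.5 FPKM, 7 of which had fewer than 10 reads in all libraries together.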
